A study of Homo sapiens with 50 samples.

Results

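The 10 genes examined here belong to the machinery that carries a cell from G1 into S phase, measured in human H1299 lung carcinoma cells with and without an shRNA against RAD9: the D-type cyclins CCND1, CCND2 and CCND3, their partner kinases CDK4 and CDK6, the E-type cyclins CCNE1 and CCNE2, their partner kinase CDK2, and the pocket proteins RB1 and RBL1. The members were every array probe that is not a control and carries one of these 10 gene names, which gave 12 probes of the 34127 on the array (10 of 25940 gene names). The rule for probes used gene names and no measured value. CCNE2 and RBL1 had 2 probes each, and the other 8 genes had 1.

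D-type cyclins assemble with CDK4 or CDK6 when growth signals arrive, and these kinases begin the phosphorylation of RB1 and its relatives. Hypophosphorylated pocket proteins hold E2F transcription factors in check, and their phosphorylation lets E2F drive the genes of S phase entry, CCNE1 and CCNE2 among them, whose products activate CDK2 and complete the switch. RAD9 is a subunit of the 9-1-1 clamp, which loads onto damaged DNA and takes part in checkpoint signalling.

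The 50 samples fell into 10 groups of 5 replicates, all harvested at 4 h. H1299 cells, and H1299shRAD9 cells infected with a retroviral vector that expresses a short hairpin against RAD9, were sham irradiated (CTL, 0 Gy) or took part in an exposure of a dish to 1 Gy of helium ions of 125 keV per µm. Directly hit cells whose neighbors responded (DBP), those responding neighbors themselves (BP, bystander positive), directly hit cells whose neighbors did not respond (DBN), and those unresponsive neighbors (BN, bystander negative) were collected from each line. The bystander groups were set by the micronuclei found in the bystander cells. Pooled or separate clones are not told apart in the labels: the study used a pair of stable H1299shRAD9 transfectants interchangeably, and which of them gave a sample was not stated. The study described the 5 samples of a group as independent and took them from individual dishes without pooling. The labels themselves do not say whether replicates came from separate cultures, so p-values measure the spread between these samples.

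Levels are log2 processed intensities of the Cy3 label minus the median of the array, so that a level of 1 is double the median probe. A level describes 1 probe, and levels of different probes are not compared with each other. On the 50 arrays, 55.1% to 83.2% of the probes were well above background (median 63.4%), and the median intensity was 68.6 to 344. All 12 member probes were well above background on all 50 arrays, and none was saturated on any. VIM, KRT8 and KRT18 were well above background on all 50 arrays, CDH1 on 0 and EPCAM on 5. NKX2-1, a transcription factor of lung epithelium, was well above background on 25 of 25 H1299 arrays and 0 of 25 H1299shRAD9 arrays, with group means of −1.09 to −0.81 and −3.92 to −3.10. Of markers of other cells, PTPRC was well above background on 50 arrays, DCN on 44, COL1A2 on 1 and PECAM1 on 2. The group means of PTPRC, a leukocyte marker, were −0.22 to 0.41 in H1299 and 0.81 to 1.31 in H1299shRAD9. The part of these differences between the lines in the results that follow was not tested.

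The RAD9A probe, the targeted gene, had a mean level of 4.01 ± 0.13 (SD, n = 5) in H1299 CTL and 3.64 ± 0.19 in H1299shRAD9 CTL. The difference was −0.36 on the log2 scale (SE 0.12, adjusted p = 0.0549 by limma with Benjamini-Hochberg adjustment) and missed the threshold of p under 0.005. In the exposed groups the difference between the lines was −0.35 in DBP, 0.06 in DBN, −0.13 in BP and −0.11 in BN, none of which passed either. The lines are separated here by their labels, which the RAD9A probe does not check at this threshold. The study reported reduced RAD9 protein in both transfectants by Western blot, which these arrays do not measure.

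The lines also differed in when their arrays were scanned. All but 2 H1299shRAD9 arrays (DBN replicate 5 and BP replicate 1) were scanned on days when no H1299 array was, so that in CTL, DBP and BN scan day and cell line cannot be told apart. Only 1 slide held arrays of both lines in the same exposure group.

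The results turned on CCND2 and CDK6, and on CDK2 because of a group of arrays where it was very low. The probes that read them are given here by their leading 30 of 60 bases, all in lower case as no base is singled out. The CCND2 probe lies at chr12:4414040-4414099 (plus strand, hg19), the CDK6 probe at chr7:92234443-92234502 (minus strand) and the CDK2 probe at chr12:56365789-56365848 (plus strand). Each was designed on the gene's mRNA and so reads exonic sequence. CDK2, like CCND1 and RB1, was printed as 10 spots per array, which were averaged.
CCND2: atcgggccattggattttttccattatgtt
CDK6: ttggtgttgaaatatcactgtccaatgtgt
CDK2: tgctgccacaatgtttataaaggccaaatg

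CCND2, a D-type cyclin, was lower in H1299shRAD9 than in H1299 in every exposure group. In H1299 CTL the levels of replicates 1 to 5 were 3.14, 2.99, 1.57, 1.61 and 1.64, and in H1299shRAD9 CTL they were −0.54, −0.54, −0.24, 0.32 and −0.28. The groups did not overlap, although replicates 1 and 2 of H1299 CTL stood more than 1 log2 unit above the other 3. The difference was −2.44 (SE 0.33), a 5.44-fold lower level, with an adjusted p of 0.000785 (limma). Of the features tested in this comparison, 15.4% were called, and 13.1% of features past the background filter had groups that did not overlap.

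After exposure the picture of CCND2 was the same in direction. In DBP the levels were 2.51, 2.13, 1.67, 1.96 and 1.87 in H1299 and −0.58, −0.43, 1.08, 0.84 and 0.09 in H1299shRAD9. In BP they were 1.33, 1.89, 1.80, 1.91 and 1.23 in H1299 and 0.56, −0.50, 0.86, 0.14 and −0.33 in H1299shRAD9. The groups came closest to each other in BP, where the lowest H1299 array was at 1.23 and the highest H1299shRAD9 array at 0.86. In DBN the levels were 2.19, 1.38, 1.43, 1.97 and 2.40 against −0.62, −0.84, 0.33, 0.05 and 0.91. In BN they were 3.67, 3.39, 1.54, 1.95 and 1.91 against −0.75, −0.86, −0.15, 0.24 and 0.42. As in CTL, replicates 1 and 2 of H1299 BN were the high ones. They were also the highest in H1299 DBP, but not in H1299 BP or DBN. In H1299shRAD9, replicates 1 and 2 were the lowest in CTL, DBP, DBN and BN, but not in BP. The part of these replicates in the difference between the lines was not tested.

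The fitted differences for CCND2 were −1.83 in DBP (SE 0.32, adjusted p = 0.0055), −1.91 in DBN (SE 0.34, adjusted p = 0.00715), −1.48 in BP (SE 0.27, adjusted p = 0.0105) and −2.71 in BN (SE 0.40, adjusted p = 0.00122), all by limma. In linear terms CCND2 in DBP, BP, DBN and BN was 3.55-fold, 2.79-fold, 3.76-fold and 6.56-fold lower in H1299shRAD9. The share of features called was 6.8% in DBP, 5.02% in DBN, 7.42% in BP and 8.36% in BN, and the share whose groups did not overlap 7.26%, 5.57%, 8.58% and 8.89%. Over all exposures, each of the 25 H1299shRAD9 arrays (−0.86 to 1.08, median −0.15) was below each of the 25 H1299 arrays (1.23 to 3.67, median 1.91), which held for 0.463% of features in that direction.

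Ordered by mean level, the H1299 groups ran from BN (2.49 ± 0.97) through CTL (2.19 ± 0.80), DBP (2.03 ± 0.32) and DBN (1.88 ± 0.45) to BP (1.63 ± 0.33), and the H1299shRAD9 groups from DBP (0.20 ± 0.74) through BP (0.15 ± 0.57), DBN (−0.03 ± 0.71) and BN (−0.22 ± 0.57) to CTL (−0.25 ± 0.35). Neighbors in this order within a line lay within their SD of each other. The only step without overlap of arrays was the one from H1299 BP to H1299shRAD9 DBP, that is, between the lines.

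Where scan day or slide allowed a comparison inside a batch and an exposure group, the direction of CCND2 held and the size was smaller. On the slide that held 1 BP array of each line, CCND2 was at 0.56 in H1299shRAD9 and 1.23 in H1299, a difference of −0.67. On the scan day that held 1 H1299shRAD9 and 2 H1299 arrays of DBN, the difference was −1.28. With scan day as a block in the fit these were the estimates, and CCND2 was not called in either (adjusted p = 0.573 and 0.483, limma). In CTL, DBP and BN no such estimate could be had. With arrays of any exposure group, the means differed by −0.84 and −1.80 inside slides that held both lines. Inside such scan days they differed by −0.99 and −1.80, the latter from the same arrays as on the slide. Each of these rested on 1 H1299shRAD9 array.

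CDK6, a kinase partner of the D-type cyclins, was higher in H1299shRAD9. In CTL the levels were 6.99, 6.73, 6.90, 6.92 and 7.05 in H1299 and 7.56, 7.50, 7.45, 7.59 and 7.66 in H1299shRAD9. The groups did not overlap, as for 13.1% of features past the background filter, and the spread within each was small (SD 0.12 and 0.08). The difference was 0.64 (SE 0.13, adjusted p = 0.00694, limma), a 1.55-fold higher level. Of the features tested in CTL, 15.4% were called.

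In DBP CDK6 was at 6.51, 7.43, 6.71, 7.10 and 6.97 in H1299 and at 7.19, 7.45, 7.62, 7.45 and 7.65 in H1299shRAD9. In BP it was at 6.69, 7.19, 7.01, 7.10 and 6.69 against 7.46, 7.59, 7.48, 7.42 and 7.82. The groups overlapped in DBP, where H1299 replicate 2 reached 7.43, and did not in BP. In BP 8.58% of features past the background filter had groups without overlap. In DBN the levels were 6.32, 7.14, 6.41, 6.98 and 7.21 against 7.26, 7.52, 7.62, 7.54 and 7.41. In BN they were 6.80, 6.78, 7.12, 7.21 and 7.17 against 7.45, 7.67, 7.37, 7.82 and 7.66. In neither did the groups overlap, and the share of features without overlap was 5.57% in DBN and 8.89% in BN. The H1299 arrays were more spread in the exposed groups than in CTL, with an SD of up to 0.42 in DBN.

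Between the lines, 7.42% of features were called in BP, 8.36% in BN, 6.8% in DBP and 5.02% in DBN. CDK6 passed the test in BP (0.62, SE 0.18, adjusted p = 0.0613) and BN (0.58, SE 0.17, adjusted p = 0.0537) and not in DBP (0.53, SE 0.21, adjusted p = 0.145) or DBN (0.66, SE 0.25, adjusted p = 0.152), all by limma. The estimates were close to each other, between 1.44-fold and 1.58-fold, and the calls in BP and BN were lost under many alternatives, among them quantile normalization (0.38 and 0.39, adjusted p = 0.189 and 0.158). The call in BP was lost when any array but H1299 replicate 2 was left out, and the call in BN when any but H1299shRAD9 replicate 3 or H1299 replicate 4 was. In DBP, CDK6 was called without H1299 replicate 2 (0.65, adjusted p = 0.0781). The call in CTL held under every alternative tried, but scan day as a block could not be fitted there. Of the 25 H1299shRAD9 arrays, 20 were above the highest H1299 array, a count whose share over all features was not computed. Inside the shared slide in BP the difference was 0.77, and inside the shared scan day in DBN it was 0.32.

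**Figure D1:**
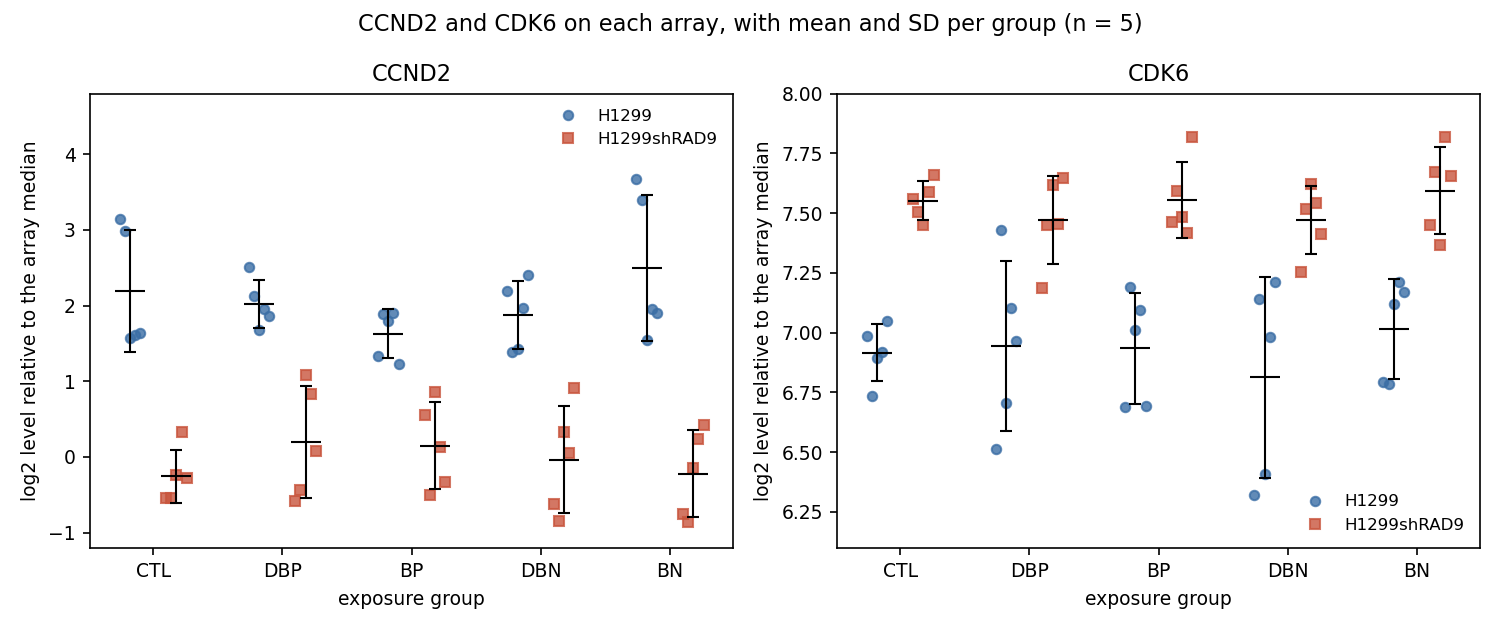
Level of CCND2 (left) and CDK6 (right) on each array, as log2 relative to the array median, in 5 exposure groups of H1299 (circles) and H1299shRAD9 (squares), with the mean and SD of 5 arrays as bars. CCND2 lies between 1.23 and 3.67 in H1299 and between −0.86 and 1.08 in H1299shRAD9, and CDK6 is shifted the other way, with overlap in DBP where an H1299 array reaches 7.43.

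The other 8 genes did not differ between the lines past the threshold in any exposure group. CCND1, the D-type cyclin of many epithelial cells, had H1299 group means of 3.85 to 4.18 and H1299shRAD9 group means of 4.01 to 4.18, with differences of −0.17 to 0.26. CCND3, the remaining D-type cyclin, differed by 0.11 to 0.28, and by −0.07 in CTL with normexp background correction. CDK4, the other kinase of the D-type cyclins, differed by −0.04 to 0.21, and by −0.02 in CTL with normexp. Set beside CCND2 and CDK6, the related cyclins and the related kinase differed by at most 0.28 and were not called, which does not show that they were equal: the 95% intervals in CTL were −0.10 to 0.42 for CCND1, −0.23 to 0.44 for CCND3 and −0.08 to 0.50 for CDK4.

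CCNE1 differed by 0.04 to 0.34, in CTL by 0.32 (SE 0.16, adjusted p = 0.177, limma). For CCNE2, the probe A_33_P3247022 differed by 0.11 to 0.46 and the probe A_33_P3217819 by −0.08 to 0.49. CDK2, the kinase of the E-type cyclins, differed by −0.18 to 0.48. RB1, the retinoblastoma protein, differed by 0.02 to 0.32. RBL1, also called p107, differed by 0.13 to 0.27 with the probe A_23_P28733 and by 0.19 to 0.43 with A_24_P276102, which was designed on another transcript of the gene. The RBL1 difference with the largest estimate was 0.43 in DBP (SE 0.18, adjusted p = 0.192, limma).

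The share of features called in the larger set these probes were tested in was 12.8% in CTL, 5.41% in DBP, 2.44% in DBN, 6.45% in BP and 7.46% in BN. The median difference between the lines over all features past the background filter was 0.05 in CTL, 0.09 in DBP, 0.16 in DBN, 0.11 in BP and 0.12 in BN. Over the smaller set of features past both filters it was 0.09 in CTL, 0.14 in DBP, 0.17 in DBN, 0.13 in BP and 0.17 in BN, and 75th percentile scaling in place of the median moved it to 0.05, 0.04, −0.02, −0.05 and 0.07 in the same order.

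**Figure D2:**
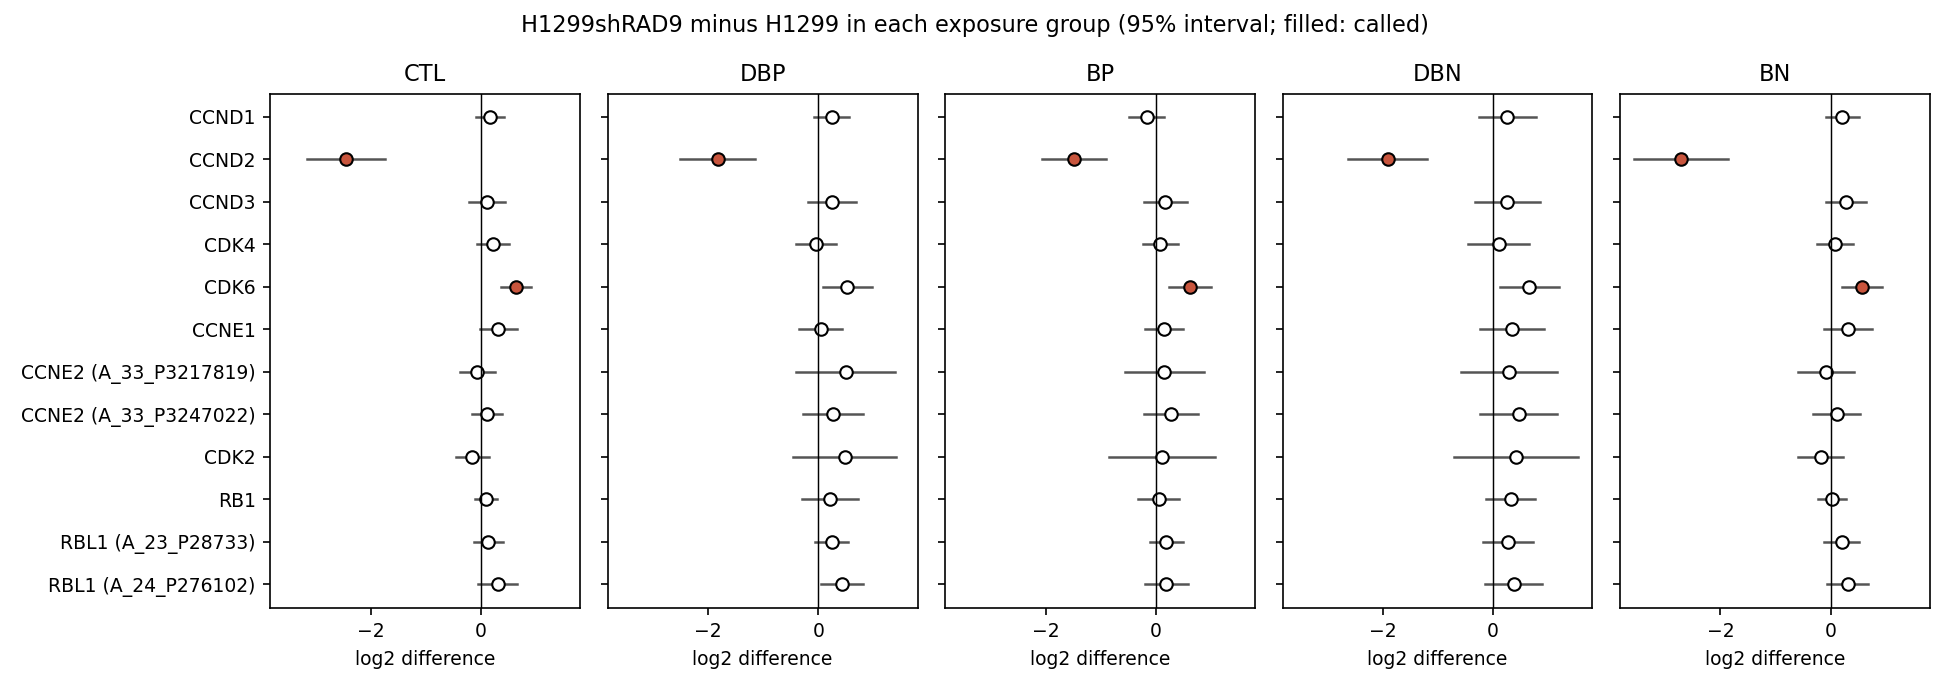
Difference H1299shRAD9 minus H1299 (log2) for the 12 member probes in each exposure group, with the 95% interval of limma as a line and filled points where the probe was called. CCND2 is called in all 5 groups (−2.71 to −1.48), CDK6 in CTL, BP and BN (0.58 to 0.64), and the other 10 probes lie between −0.18 and 0.49.

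Exposure to helium ions changed none of the members past the threshold, neither in directly hit cells nor in their neighbors, in either line. Over 8 comparisons of an exposed group with its CTL, 96 values were obtained with the replicate number as a block, of which 0 were called and 5 had an unadjusted p under 0.05. The smallest adjusted p was 0.304 (limma). The share of features called was 1.8% in DBP, 4.68% in DBN, 2.21% in BP and 0.0494% in BN of H1299shRAD9, and 0.0576%, 0.0165%, 0% and 0% in the same order in H1299. In the larger set used for 7 of the probes the shares, again in that order, were 1.32%, 2.84%, 1.59% and 0.0299% in H1299shRAD9 and 0.0349%, 0.00996%, 0% and 0% in H1299. In H1299 BP and BN, where limma called 0 features, 717 and 332 had an unadjusted p under 0.05. The 4 comparisons of a line share its CTL arrays.

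RBL1 with A_23_P28733 gave that smallest value. It was at 2.24, 2.25, 2.37, 2.41 and 2.28 in H1299shRAD9 CTL and at 2.35, 2.70, 2.57, 2.49 and 2.63 in DBP. All 5 pairs were higher after exposure, by 0.24 on average (SE 0.09, adjusted p = 0.304, limma), a 1.18-fold difference, and the groups overlapped. The second RBL1 probe gave 0.13 in the same comparison (adjusted p = 0.621).

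CDK4 was lower in the 4 exposed groups of H1299shRAD9 than in CTL, by −0.17 in DBP, −0.24 in DBN, −0.23 in BP and −0.29 in BN. In CTL it was at 7.84, 7.91, 8.18, 8.20 and 8.06, and in BN at 7.76, 7.59, 7.51, 7.79 and 8.10. None of these was called (adjusted p between 0.337 and 0.48, limma), and the CTL arrays are the same in all 4. In H1299 the CDK4 differences were 0.09, −0.12, −0.10 and −0.15 in the same order.

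CCND1 did not overlap between H1299 BP and CTL. It was at 4.19, 3.99, 4.45, 4.04 and 4.24 in BP and at 3.97, 3.79, 3.70, 3.90 and 3.90 in CTL, higher in all 5 pairs. The difference of 0.33 (SE 0.15, adjusted p = 0.823, limma) was not called, and 0.433% of all features had groups without overlap in this comparison. Against the directly hit cells of the same replicate number, CCND1 was also higher in BP in 5 of 5 pairs (DBP minus BP −0.33, SE 0.12, adjusted p = 0.657, limma). In H1299shRAD9 the mean of CCND1 was 4.01 both in BP and in CTL.

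No difference of CCND2 from CTL was called in either line. In H1299shRAD9 it was higher than CTL by 0.45 in DBP (SE 0.19, adjusted p = 0.314), 0.22 in DBN, 0.40 in BP and 0.03 in BN. In H1299 it was −0.16 in DBP, −0.31 in DBN, −0.56 in BP and 0.30 in BN (SE 0.12, adjusted p = 0.999). Tested as an interaction, the difference in response between the lines was largest in BP, at 0.96 (SE 0.41, adjusted p = 0.689, limma), and none of the 48 member values was called. The interaction fits called 0 features in all 4 exposures, with 1052, 854, 1105 and 947 at an unadjusted p under 0.05 in DBP, BP, DBN and BN. In the larger set 0.0149% were called for DBN and 0% for the others.

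Directly hit cells and their neighbors differed in no member either. Among the 48 values of DBP against BP and DBN against BN, 0 were called, and 2 had an unadjusted p under 0.05: CCND1 in H1299 DBP against BP, given above, and CCNE2 with A_33_P3247022 in H1299shRAD9 DBN against BN (0.30, SE 0.13, adjusted p = 1.00, limma). The share of features called was 0.107% and 0.132% in H1299shRAD9 and 0% in both comparisons of H1299, where 733 and 416 features had an unadjusted p under 0.05. In the larger set the shares were 0.0797% and 0.0747% in H1299shRAD9 and 0% and 0.00498% in H1299.

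**Figure D3:**
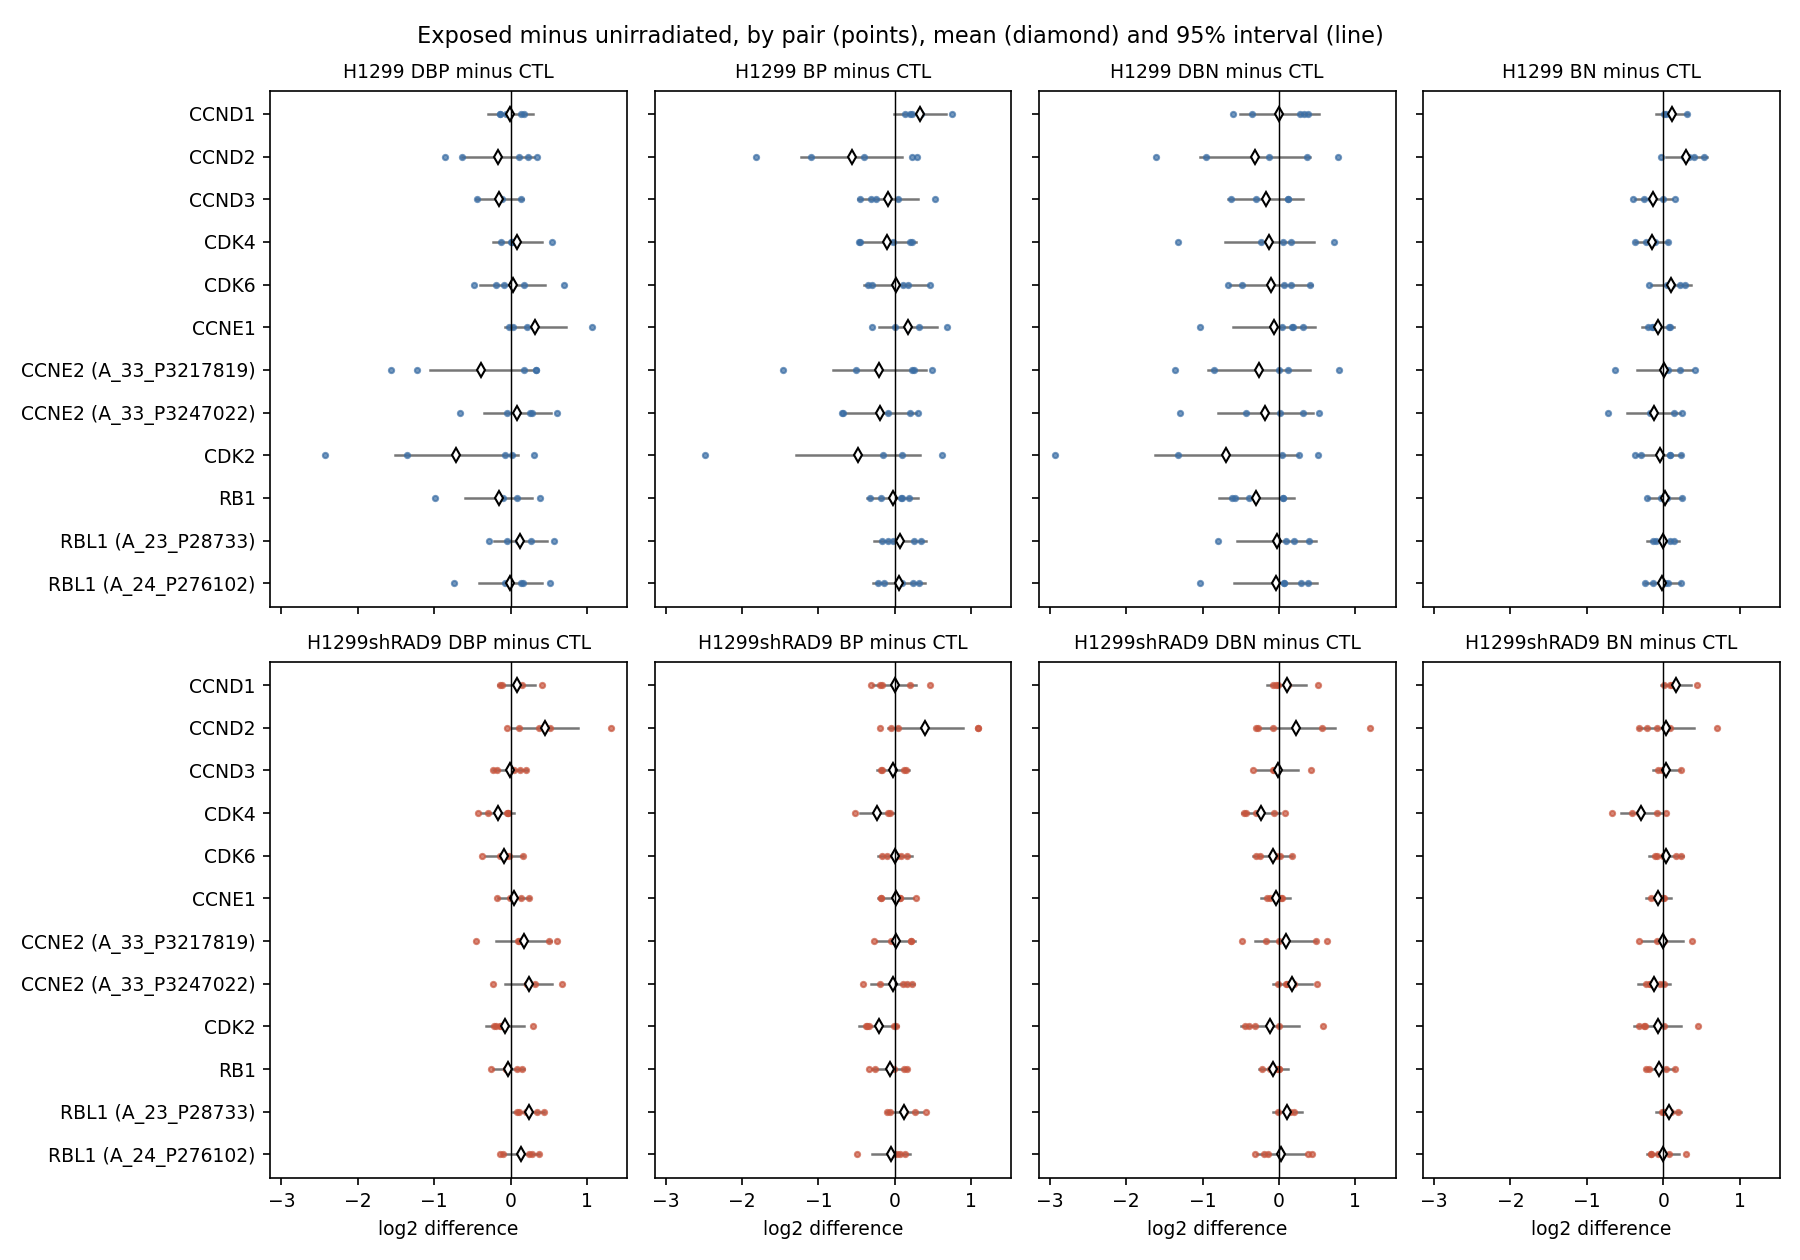
Difference of an exposed group from the unirradiated group of its line (log2) for the 12 member probes, with the 5 pairs as points, their mean as a diamond and the 95% interval of limma as a line. None was called, and the left tails of CDK2 in H1299 come from 2 arrays in DBP, 1 in BP and 2 in DBN.

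CDK2 had the widest spread of all members in H1299 DBP, BP and DBN (SD 1.17, 1.23 and 1.47). In H1299 CTL it was at 2.55, 2.27, 2.14, 2.57 and 2.45. In DBP it was at 1.19, −0.16, 2.44, 2.49 and 2.47, in BP at 2.39, −0.21, 2.76, 2.67 and 1.97, and in DBN at 1.23, −0.66, 2.40, 2.60 and 2.96. Replicate 2 was the lowest in each of these 3 groups, and replicate 1 was low in DBP and DBN. In BN, by contrast, the arrays lay between 1.90 and 2.66. In H1299shRAD9 CDK2 lay between 1.73 and 3.0 on all 25 arrays.

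The CCNE2 probe A_33_P3217819 was low on the same arrays: at −0.64 and −0.27 in replicates 1 and 2 of H1299 DBP, −0.51 in replicate 2 of BP, and −0.44 and 0.10 in replicates 1 and 2 of DBN, while it was between 0.92 and 1.31 in H1299 CTL. These arrays also stood apart in the 5′ to 3′ index, the median over 2061 genes of the level of the most 5′ probe minus that of the most 3′ probe, which falls when the 5′ parts of the mRNAs are under-represented. The index was −1.89 and −2.06 in replicates 1 and 2 of H1299 DBP, −1.97 in replicate 2 of BP and −1.93 in replicate 2 of DBN, against a median of −1.65 over all arrays. There were exceptions both ways: BN replicate 1 had an index of −1.89 and CDK2 at 2.25, and DBN replicate 1 had an index of −1.59 with 83.2% of its probes well above background.

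Without the 5 arrays of lowest index, all of exposed H1299 cells, the difference of CDK2 from CTL in H1299 moved from −0.71 to 0.08 in DBP, from −0.48 to 0.02 in BP and from −0.69 to −0.13 in DBN. Between the lines, CDK2 moved from 0.48 to −0.30 in DBP, from 0.12 to −0.42 in BP and from 0.42 to −0.17 in DBN, and the CCNE2 probe A_33_P3217819 from 0.49 to −0.27 in DBP and from 0.15 to −0.19 in BP, so that their direction rested on those arrays. This choice of arrays was made after the data had been seen. CCND2 and CDK6 kept their direction between the lines in all 4 exposed groups without them (CCND2 −1.63, −1.42, −2.03 and −2.42 in DBP, BP, DBN and BN; CDK6 0.55, 0.68, 0.74 and 0.52). CDK6 in BN was then no longer called (adjusted p = 0.0971, limma).

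Over the 50 arrays, after group means had been removed, the Pearson correlation with the index was 0.79 for CDK2, 0.61 for the CCNE2 probe A_33_P3217819, which starts at base 1144 of its transcript, and 0.29 for A_33_P3247022, which starts at base 2501 of the same transcript. For CCND3 it was 0.60, for CCND2 −0.21 and for CDK6 −0.28. It was 0.41 for CCND1, whose probe starts at base 3279, and −0.33 for CDK4, whose probe starts at base 1189. For CCNE1 it was −0.03 and for RB1 −0.18. The RBL1 probes A_23_P28733 and A_24_P276102 had 0.0008 and 0.29. These describe 50 arrays that share their hybridization and scaling, and are given without a test.

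**Figure D4:**
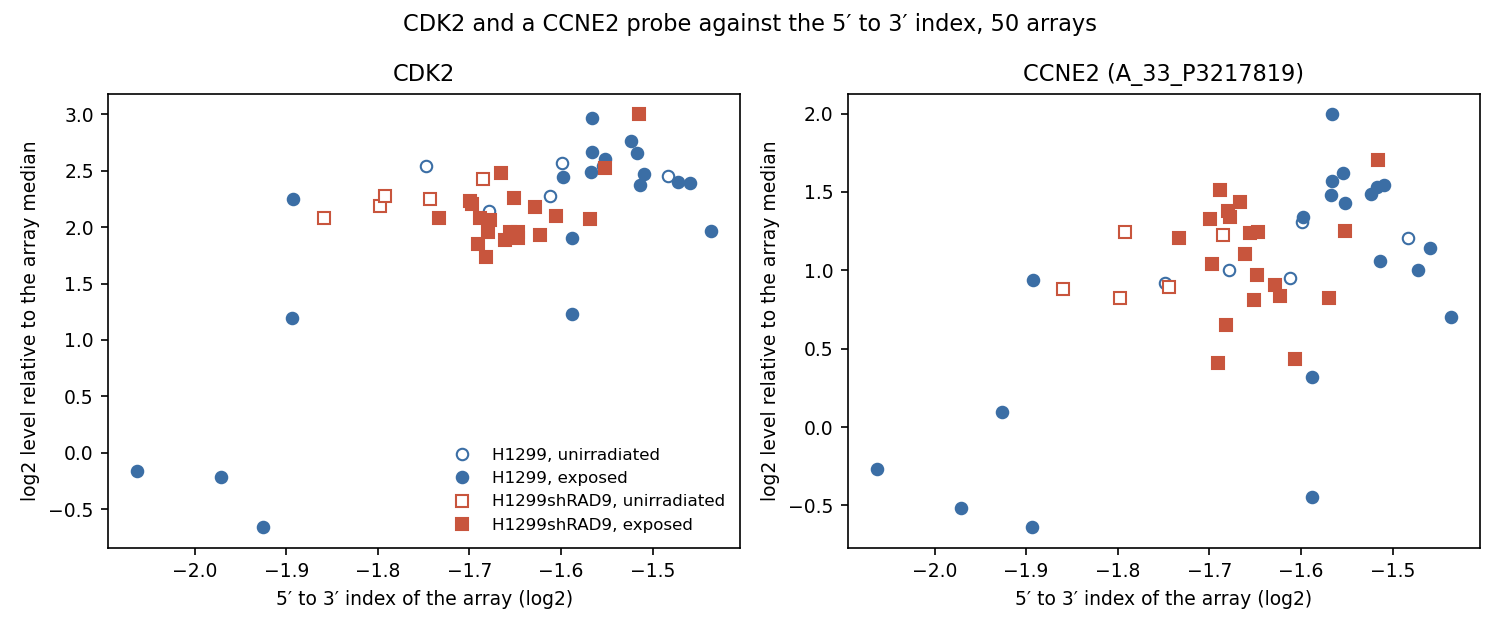
Level of CDK2 (left) and of the CCNE2 probe A_33_P3217819 (right), as log2 relative to the array median, against the 5′ to 3′ index of the array, for H1299 (circles) and H1299shRAD9 (squares), open where unirradiated. CDK2 is at −0.16, −0.21 and −0.66 on the 3 arrays with the lowest index, all of exposed H1299 cells, and at 1.73 or above on every H1299shRAD9 array.

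Members also varied together across arrays within groups. With group means removed, the highest correlation between probes of different members was 0.80, between CDK2 and the CCNE2 probe A_33_P3217819 (0.84 in H1299 and 0.55 in H1299shRAD9, 25 arrays each). Both were low on the same exposed H1299 arrays, given above, and had correlations of 0.79 and 0.61 with the 5′ to 3′ index. The part of those arrays in this correlation was not tested. The 2 CCNE2 probes had a correlation of 0.89 with each other and the 2 RBL1 probes 0.77. The CCNE2 probe A_33_P3247022 and RBL1 with A_23_P28733 had 0.76, at 0.76 in each line. CCND2 had correlations of −0.21 to 0.21 with the other members over both lines, which held unlike values within them: −0.53 in H1299 and 0.47 in H1299shRAD9 with CCND3, −0.22 and 0.60 with CCNE1, −0.25 and 0.59 with the CCNE2 probe A_33_P3217819, and −0.01 and 0.56 with CDK4. The difference between the lines in these correlations was not tested. All members share the hybridization and scaling of their array.

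Of 15475 other genes, those whose within-group pattern was most like that of CCND2 over 50 arrays were PIM1 (Pearson r = 0.77), a serine/threonine kinase, SLC1A4 (0.76), a neutral amino acid transporter, and FLJ43315 (0.75). For CDK6 they were GPR125 (0.88), an adhesion receptor, PGM2 (0.86), a phosphoglucomutase, and PDLIM3 (0.85), a PDZ and LIM domain protein. None of these is a member, and all share arrays, labeling and scaling with the members.

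The rest of the G1 machinery was counted from lists of the inhibitors, the E2F factors, other regulators and E2F targets, with each gene read by its brightest probe. Of 7 CDK inhibitors, all past the background filter and 6 past both filters, 2 were lower and 0 higher in H1299shRAD9 CTL, where 15.4% of all features were called, and the median difference was −0.39 against 0.05 over all features. CDKN1C, or p57, an inhibitor of the CIP/KIP family, fell by 1.47 (SE 0.22, adjusted p = 0.00177), from a mean of 2.88 to 1.41. CDKN1A, or p21, of the same family, fell by 0.88 (SE 0.18, adjusted p = 0.00746), from −0.76 to −1.64, where it was well above background on 3 of 5 arrays. The call of CDKN1C in CTL held in all 24 alternatives and that of CDKN1A in 21 of 24, with a difference of −0.37 under normexp background correction, where it was lost. Scan day as a block could not be among them in CTL.

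CDKN1C was also lower in H1299shRAD9 in DBP (−1.39, SE 0.39, adjusted p = 0.0578) and DBN (−1.17, SE 0.36, adjusted p = 0.0993), and CDKN1A in BP (−0.92, SE 0.21, adjusted p = 0.0261). The call of CDKN1C held in 15 of 24 alternatives in DBP and 6 of 25 in DBN, where its difference was −0.39 with scan day as a block. It was lost in DBP without H1299 replicate 1 or 2 or H1299shRAD9 replicate 1, 2 or 5 (−1.40 to −1.05) and without the arrays of low index (−0.80), and in DBN without H1299 replicate 1, 2 or 3 or any H1299shRAD9 replicate (−1.25 to −0.92). That of CDKN1A in BP held in 23 of 25 and was lost with scan day as a block (−0.57, adjusted p = 0.607, limma). In BN no inhibitor was called. CDKN1A had 1 H1299shRAD9 DBP array, replicate 4, at 1.71, against −1.14 to −0.30 on the others of that group, and its difference between the lines in DBP was 0.20 (adjusted p = 0.821). Against CTL, CDKN1A was higher by 1.34 in H1299shRAD9 DBP, in 5 of 5 pairs, and was not called (SE 0.36, adjusted p = 0.143, limma).

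After exposure, 2 inhibitors of CDK4 and CDK6 were called in directly hit H1299shRAD9 cells, CDKN2C in DBP and DBN and CDKN2D in DBN, beside 1.8% and 4.68% of all features in those comparisons. No inhibitor was called against CTL in the bystander groups or in H1299. CDKN2C, or p18, was at 6.39, 6.28, 5.70, 5.79 and 5.76 in H1299shRAD9 CTL. In DBP it was at 5.41, 5.69, 4.67, 4.96 and 4.96, and in DBN at 5.35, 5.57, 5.22, 4.85 and 4.85. All 5 pairs fell in both directly hit groups, by 0.84 in DBP (SE 0.10, adjusted p = 0.0453) and 0.82 in DBN (SE 0.11, adjusted p = 0.0371, limma). The call of CDKN2C held in 12 of 21 alternatives in DBP and 13 of 19 in DBN, with differences of −0.91 to −0.76 and −1.14 to −0.76. It was lost in DBP without replicate 2, 3, 4 or 5 (−0.91, −0.80, −0.85 and −0.86), in DBN without replicate 2 or 4 (−0.84 and −0.78), and in both without the replicate block (adjusted p = 0.281 and 0.119) and with the 5′ to 3′ index of the array, defined above, as a covariate (adjusted p = 1.00 and 0.662, limma).

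CDKN2D, or p19, fell by 0.41 in DBN (SE 0.10, adjusted p = 0.098), from 7.36 ± 0.12 to 6.96 ± 0.21. In DBP it differed by −0.45 (SE 0.11, adjusted p = 0.126, limma), lower in 5 of 5 pairs and not called. The call in DBN held in 3 of 19 alternatives and was lost without any of the 5 replicates (−0.44 to −0.35).

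In the bystander groups of H1299shRAD9, CDKN2C differed from CTL by −0.20 in BP (adjusted p = 0.446) and −0.27 in BN (adjusted p = 0.28). The difference between DBP and BP was −0.64 (SE 0.09, adjusted p = 0.0967) and was called, beside 0.107% of all features. This call held in 10 of 21 alternatives and was lost without any of the 5 replicates (−0.66 to −0.61), with slide as a block (adjusted p = 0.188) and without the replicate block (adjusted p = 1.00, limma). In H1299, CDKN2C differed by −0.75 in DBP (adjusted p = 0.392) and −0.88 in DBN (adjusted p = 0.971), lower in 5 of 5 pairs each and not called. The response of CDKN2C was not shown to differ between the lines, with interactions of −0.10 in DBP (adjusted p = 0.88) and 0.06 in DBN (adjusted p = 0.993).

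Of 11 E2F and DP factors with RBL2, 5 of them past both filters, 1 was higher in H1299shRAD9 CTL, where 15.4% of all features were called, and none was called in the other comparisons. E2F6, a repressive member of the family, rose from 5.26 to 5.70, by 0.43 (SE 0.13, adjusted p = 0.0305, limma), a call that held in 5 of 20 alternatives and was lost when any array but H1299 replicate 2 was left out (0.40 to 0.46). The median of the list between the lines was 0.22 to 0.32, against 0.05 to 0.16 over all features, and 0.13 to 0.21 against −0.01 to 0.05 with 75th percentile scaling.

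Of 16 other regulators of G1 cyclins and CDKs, 7 of them past both filters, MYC alone was called, in 3 comparisons where 15.4%, 6.8% and 7.42% of all features were. MYC, a transcription factor that activates several cyclin and CDK genes, was higher in H1299shRAD9 by 0.86 in CTL (SE 0.23, adjusted p = 0.0231), 0.97 in DBP (adjusted p = 0.06) and 0.70 in BP (adjusted p = 0.0671). In DBN it was 1.18 (adjusted p = 0.139) and in BN 0.58 (adjusted p = 0.153), both short of the threshold. The calls held in 15 of 24 alternatives in CTL, 16 of 24 in DBP and 7 of 25 in BP, with differences of 0.69 to 0.99, 0.72 to 1.16 and 0.48 to 0.79. They were lost in CTL without replicate 3, 4 or 5 of either line, in DBP without H1299 replicate 3 or 5 or H1299shRAD9 replicate 2, 3, 4 or 5, and in BP without H1299 replicate 1, 3, 4 or 5 or H1299shRAD9 replicate 2, 3, 4 or 5.

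Of 20 E2F target genes of S phase entry, 8 of them past both filters, none was called in any comparison of the exposed groups. The medians of the list between the lines were 0.07 in CTL, 0.15 in DBP, 0.35 in DBN, 0.21 in BP and 0.24 in BN, with 14, 16, 19, 18 and 17 of 20 genes above 0 in the same order. Of all features past the background filter, 56.4%, 61.4%, 67.5%, 64.2% and 65.8% were above 0. With 75th percentile scaling, chosen here for the list after the data had been seen, 14, 14, 16, 14 and 15 of the 20 were, beside 56.0%, 54.3%, 52.2%, 48.9% and 57.0% of all features. In H1299 DBN against CTL the median was −0.21 with 1 of 20 genes above 0, against −0.11 and 26.4% over all features. In H1299 BN it was −0.12 with 2 of 20, beside 34.5% of all features, and in H1299 BP −0.15 with 5 of 20, beside 37.6%. In H1299 DBP it was 0.02 with 13 of 20, beside 54.7%. In H1299shRAD9 it was −0.01 with 10 of 20 in DBP, beside 58.0%, and −0.03 with 8 of 20 in BP, beside 54.4%. It was −0.05 with 8 of 20 in H1299shRAD9 DBN, beside 47.9%, and −0.04 with 7 of 20 in BN, beside 51.3%.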

How the data were processed

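The deposited files are single-channel Agilent scanner outputs, 1 per array. In them the authors' Feature Extraction software (version 11.5.1.1 in the header of each output) gave background-subtracted processed intensities. The authors' log2 values, which they median normalized and filtered, were deposited for 9476 of these probes and served as an alternative. The study's methods averaged probes, discarded features marked as outliers or too dim on 25% of arrays or more, and required 1.3-fold variation in 20% of them.

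Here, log2 of the processed intensity minus the array median was averaged over the spots of a probe, without outlier spots. Of 34127 probes, 20079 passed the background filter and 12149 also the 1.3-fold filter. Of the members, 12 probes passed the former and 5 (CCND2, CDK6, CDK2 and both of CCNE2) the latter, and the other 7 have values from the fit on 20079 features. limma 3.58.1 in R 4.3.3 (lmFit, eBayes) was used, unpaired between lines, and with the replicate number as a block for exposures, direct against bystander, and interactions. A feature was called at p under 0.005 (lines) or 0.006 (others) and a false discovery rate (Benjamini-Hochberg) below 10%, over all features tested. Intervals are 95% intervals from limma. The number of arrays limits the precision.

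The study's methods name matched samples for exposures. With group means removed, same-numbered arrays had mean correlations of 0.49 to 0.56 in H1299shRAD9 exposures and 0.16 to 0.45 in H1299, where not every pair was above 0.1 in BP and DBN. Between the lines the means were −0.05 to 0.07. The members, lists and tests were chosen with earlier results of these data known. Named genes are the members, list genes called by their brightest probe, RAD9A, and the 3 genes most correlated with each called member; not every list gene is reported here. The code was tested on simulated data. Python 3.11.15 drew the plots.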

Additional observations from a re-analysis of the deposited data

Results flagged for a closer look

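In 8 of the 100 sets of 5 arrays (10 genes, each by its brightest probe, in 10 groups), the highest or lowest array stood far from the others by Dixon's ratio at 0.71, where chance gives about 1 in 20. The lowest arrays so found were CCND3 at 4.14 and CDK2 at −0.21, both in H1299 BP replicate 2, the array with a 5′ to 3′ index of −1.97. The highest were CCNE2 at 4.18 and RBL1 at 2.60, both in H1299shRAD9 BN replicate 4, CDK2 at 3.0 in H1299shRAD9 DBN replicate 5, RBL1 at 2.56 in H1299shRAD9 DBN replicate 3, RB1 at 5.29 in H1299 CTL replicate 3 and RB1 at 5.54 in H1299shRAD9 DBP replicate 2.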

How the results depend on the processing

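The number of member probes called was 2 in CTL between the lines under every alternative, and 0 in all exposure, direct against bystander and interaction comparisons under every alternative. In DBP it was 2 in place of 1 with all groups in one fit, and in DBN likewise. Scan day as a block, added after the data had been seen, gave 0 in BP (2 otherwise) and 0 in DBN (1 otherwise). In BP it was 1 with 75th percentile scaling, quantile normalization, the positive and significant mark as filter, the authors' values and the replicate block. In BN (2 otherwise) it was 1 under the same 5 settings and without the arrays of low index, and 0 with normexp background correction, which moved the median of all features to 0.64 there. Leaving out single arrays gave 1 to 2 in DBP (2 without H1299 replicate 2), 1 to 2 in BP, 1 in DBN and 1 to 2 in BN. Where 1 was left in BP or BN with the replicate block it was CCND2.

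Scan day as a block could not be fitted between the lines in CTL, DBP or BN. Slide as a fixed block could not be fitted between the lines, and as a random block only in CTL, since the other groups held 1 pair of arrays on a shared slide. No called difference changed sign. The scanner values limit the dim probes, but all 12 member probes were well above background throughout.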
